A study of Mus musculus with 5 samples.

Results

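The genes described here make, sense, take up, move and export cholesterol. There are 31 of them, chosen by symbol for their roles in cholesterol handling, with earlier results of these data known. Each is read through the probe set that the platform annotation gives to that symbol alone, and where there are several, through the one with the highest mean over the 5 arrays. Of these, 29 had a value among the 18193 genes measured, and Acat2 and Nr1h2 were not analysed here. Sorted bone marrow cells of C57BL/6 mice gave the RNA for 5 Affymetrix expression arrays. The groups are 2 arrays from MSI2-inducible mice, made to switch on the RNA-binding protein Musashi 2, and 3 arrays from control rtTA mice, which carry the doxycycline-dependent transactivator that drives such transgenes. Not stated in the labels are the sequence or promoter of the transgene, whether the MSI2-inducible mice also carry rtTA, the animals' age, or any doxycycline treatment. They describe the cells as lineage-low, Sca1+ and Kit+, whereas the series text gives Sca1- cells, so the gate is uncertain. Separate animals within a group are not stated either, so each p reflects only the spread between arrays, part of which may be technical.

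Cholesterol is built from acetyl-CoA. Hmgcs1 and the kinases, decarboxylase and isomerase that follow it make isoprenoid units through mevalonate, Fdps and Fdft1 join these into squalene, and a chain of membrane-bound enzymes turns squalene into sterols. The pathway is set by feedback. When sterols in the endoplasmic reticulum are low, Scap carries the SREBP transcription factors, the products of Srebf1 and Srebf2, to the Golgi for cleavage, and the released factors raise synthesis genes; when sterols are high, the Insig proteins hold Scap back. Surplus cholesterol gives rise to oxysterols that switch on the nuclear receptors LXR-alpha and LXR-beta, products of Nr1h3 and Nr1h2, whose targets include the exporters Abca1 and Abcg1. In mice, loss of these exporters is known to raise the proliferation of blood stem and progenitor cells.

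SREBP proteins bind short sterol response elements, often beside CCAAT boxes bound by NF-Y. Promoters of 4 members are shown because they belong to the synthesis gene with the largest difference (Hmgcs1), to every member promoter that holds the sterol element core searched for (Hmgcs1, Msmo1 and Srebf2), and to the feedback regulator with the largest difference (Insig1). Each is the 250 bases before the transcription start, from RefSeq on GRCm38.p6, read 5′ to 3′ along the gene. Capitals mark matches to TCACNCCA and to CCAAT on either strand, so that CCAAT on the other strand reads ATTGG.
Hmgcs1: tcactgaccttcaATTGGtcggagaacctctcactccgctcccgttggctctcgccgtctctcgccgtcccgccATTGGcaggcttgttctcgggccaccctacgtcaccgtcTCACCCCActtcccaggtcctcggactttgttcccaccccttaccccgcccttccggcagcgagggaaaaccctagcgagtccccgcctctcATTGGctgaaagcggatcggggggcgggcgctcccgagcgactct
Msmo1: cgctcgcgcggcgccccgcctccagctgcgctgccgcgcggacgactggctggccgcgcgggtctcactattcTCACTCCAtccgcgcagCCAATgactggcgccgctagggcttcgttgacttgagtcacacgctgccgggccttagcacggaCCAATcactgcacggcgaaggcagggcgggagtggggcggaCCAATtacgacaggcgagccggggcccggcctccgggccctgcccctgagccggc
Srebf2: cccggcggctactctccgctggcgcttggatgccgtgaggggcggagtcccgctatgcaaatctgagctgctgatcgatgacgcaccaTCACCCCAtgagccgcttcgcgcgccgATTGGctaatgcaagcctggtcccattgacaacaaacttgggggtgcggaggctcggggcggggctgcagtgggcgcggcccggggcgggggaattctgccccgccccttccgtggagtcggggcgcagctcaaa
Insig1: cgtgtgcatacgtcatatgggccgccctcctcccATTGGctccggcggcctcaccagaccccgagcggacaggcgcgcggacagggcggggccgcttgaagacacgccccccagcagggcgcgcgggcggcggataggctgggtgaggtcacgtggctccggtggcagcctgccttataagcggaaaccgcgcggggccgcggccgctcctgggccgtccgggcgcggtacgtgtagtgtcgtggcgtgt
The Hmgcs1 window is chr13:119690101-119690350 on the + strand, and its sterol element core, TCACCCCA, lies 137 to 130 bases before the start. For Msmo1 the window is chr8:64733579-64733828 on the - strand, with TCACTCCA 177 to 170 bases before the start. In the Srebf2 window (chr15:82147019-82147268, + strand) TCACCCCA lies 162 to 155 bases before the start, and in the Insig1 window (chr5:28071162-28071411, + strand) these letters are not found. Of the 18 synthesis genes, 15 matched the promoter table, with 18 promoters. Among these 18 promoters 2 held TCACNCCA (11.1%), against 3.67% of all 32851 promoters, and 14 held CCAAT (77.8%), against 33.8% of all. Of the 13 other members 9 matched, with 15 promoters, of which 1 held TCACNCCA (6.67%) and 6 held CCAAT (40%). A match describes letters in a window and does not show that a factor binds there.

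Values below are given as log2 of probe set intensity. A difference is the MSI2-inducible mean less the control rtTA mean, with limma's standard error (SE). Intensities of different probe sets are not set against each other. Arrays of the groups were alike over all genes, and their mean correlation with the other 4 arrays lay between 0.973 and 0.983. MSI2-inducible replicate 1 stood apart on the first principal component, which held 41.8% of the variance. Stem and progenitor genes were well measured, with Kit at 8.80 and 9.50 in MSI2-inducible arrays and 9.19 to 9.66 in control rtTA arrays. The stem cell gene Slamf1 was lower with no overlap (-1.27). The gene for Sca1 was not analysed here, so the gate could not be checked by it. Markers of other cell types also differed between arrays, with 0 of them called. All 8 measured neutrophil markers lay above every control array in MSI2-inducible replicate 1 and none did in replicate 2, with medians of 1.89 and -1.13 against the control mean. The log2 summed level of the 8 erythroid markers was 13.85 and 13.59 in MSI2-inducible arrays, against 13.27 to 13.35 in control rtTA arrays. Epor (1.16) and Car1 (1.24) were higher and Gata1 (-0.53) lower without overlap. Such a sum is carried by the brightest markers, here Car2 (12.84 to 13.18), which overlapped. By median against the control mean the erythroid list overlapped, at 1.07 and 0.15 against -0.11 to 0.26 in control rtTA arrays. For the 5 megakaryocyte markers the log2 sum was 9.73 and 10.06 against 10.60 to 10.89 in control rtTA arrays. Pf4 (-1.38) and Vwf (-0.95) were lower without overlap, while Itga2b (-0.07), Gp1bb (-0.12) and Gp9 (0.11) overlapped. For the 6 B cell markers the log2 sum was 9.95 and 9.46 against 8.19 to 9.17 in control rtTA arrays. Vpreb1 (2.22) was higher without overlap, while Ms4a1 lay near the floor (2.50 to 2.96). By median against the control mean the B cell list overlapped, at 0.68 and -0.01 against -0.07 to 0.09 in control rtTA arrays. T and NK cell markers overlapped in sum, with Cd3e near the floor (2.22 to 2.63) and Nkg7 at 8.97 to 9.92. Of 6 monocyte and macrophage markers Ccr2 (1.67) was higher without overlap. All 5 mast cell, basophil and eosinophil markers overlapped between groups. Among them Prg2 (3.51 to 9.21) and Epx (3.73 to 8.69) varied widely and were low in replicate 2 of each group. Of 5 endothelial and stromal markers Cxcl12 (-2.16) and Lepr (-0.31) were lower without overlap. The part of these cell types in later results was not tested. Mouse Msi2 has 8 probe sets, and only the one with the highest mean is given here. It read 11.00 and 11.43 in MSI2-inducible arrays and 11.67 to 11.76 in control rtTA arrays (difference -0.51, limma adjusted p = 0.883). Since it may not read the transgene it checks nothing about the labels.

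Synthesis genes were higher in MSI2-inducible cells as a group, by a modest amount, and no single gene passed the test. All 17 measured synthesis genes had a difference above 0, from 0.13 to 1.17 with a median of 0.36, whereas 50.4% of all genes did and the median of all genes was 0.00. Both MSI2-inducible arrays lay above all 3 control rtTA arrays for 6 of the 17 (Hmgcs1, Mvd, Fdps, Msmo1, Nsdhl and Dhcr7) and below them for 0, against 9.27% and 9.39% of all genes. At a limma adjusted p under 0.05 none of the 29 measured members was called (adjusted p 0.518 to 0.993), against 0.022% of all genes, which is 4 genes. At an unadjusted p under 0.05 there were 3 members, all higher (Hmgcs1, Dhcr7 and Insig1), against 2.87% of all genes. Synthesis genes are coregulated, so their counts do not amount to independent observations. The members were also chosen with earlier results of these data known, so these counts describe the set and do not test it. In bulk RNA a change in the share of some cell type and a change in RNA per cell cannot be told apart.

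**Figure D1:**
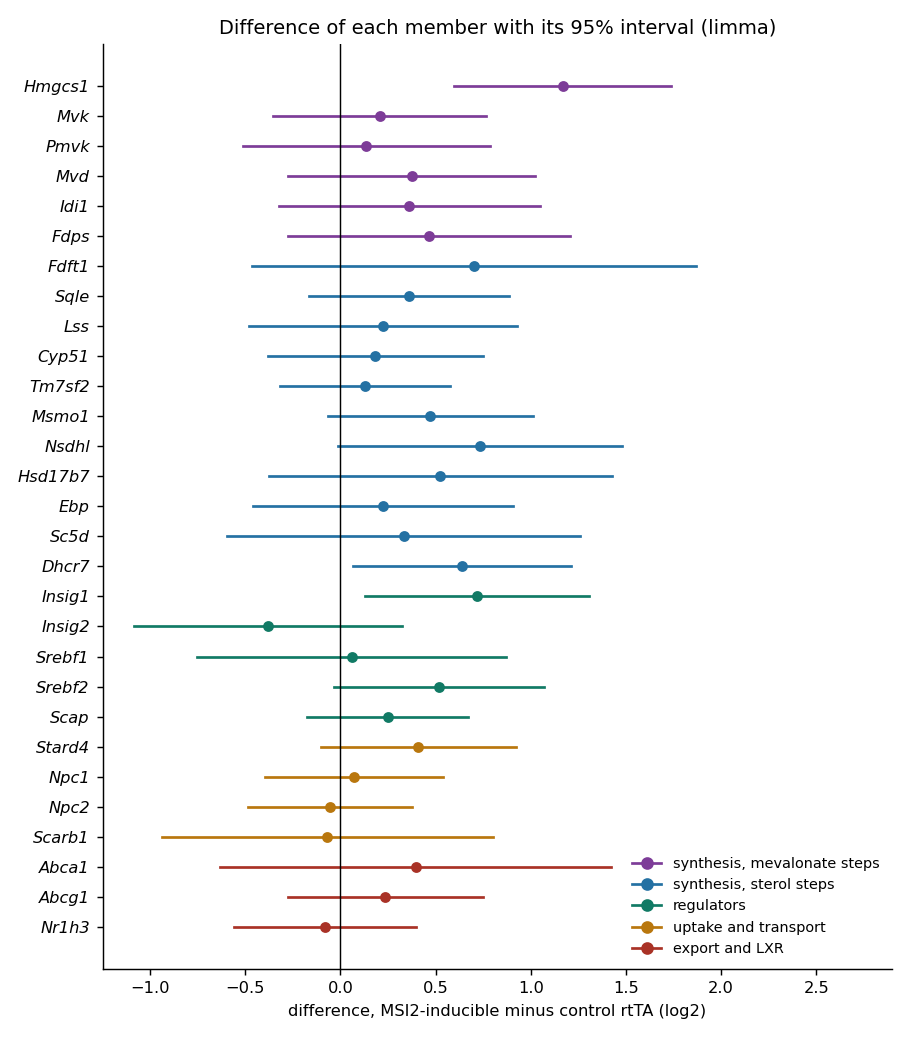
Difference of each of the 29 measured members, MSI2-inducible minus control rtTA, on the log2 scale (points), with limma's 95% intervals (lines), coloured by role. All 17 synthesis genes sit right of 0, and the intervals of Hmgcs1, Dhcr7 and Insig1 alone leave out 0.

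Hmgcs1, the synthase that makes HMG-CoA, the precursor of mevalonate, showed the largest difference of any member. It read 12.52 and 12.27 in MSI2-inducible arrays, against 11.54, 10.95 and 11.20 in control rtTA arrays. The lowest MSI2-inducible array was thus above the highest control array by more than the whole control range. Means were 12.39 ± 0.18 (SD, n = 2) in MSI2-inducible cells and 11.23 ± 0.29 (SD, n = 3) in control rtTA cells, a difference of 1.17 (SE 0.23, 2.24-fold). Across all genes this ranked 86th by p and had a limma adjusted p = 0.518. Of its 4 other probe sets, 3 gave the same picture, with no overlap and differences of 0.75, 1.15 and 1.15, and the faintest, at a signal of only 3.04 to 3.56, was lower in both MSI2-inducible arrays (-0.31). The difference lay between 1.03 and 1.32 with any 1 array left out.

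Later mevalonate steps differed less. Mvd, the decarboxylase that yields isopentenyl diphosphate, read 6.81 and 6.80 in MSI2-inducible arrays and 5.97, 6.61 and 6.71 in control rtTA arrays, a difference of 0.37 (SE 0.26). Its groups did not overlap, but the gap to the nearest control array was small beside the control range, its difference was 0.15 without control replicate 1, and its other probe set differed by -0.13. Fdps, farnesyl diphosphate synthase, read 7.39 and 7.22 against 7.17, 7.06 and 6.29 in control rtTA arrays, and its difference, 0.46 (SE 0.30), was 0.19 without the low control replicate 3. Its other, fainter probe set was lower with no overlap (-0.29), and the mean of both probe sets differed by 0.088. For the isomerase Idi1 the values were 10.50 and 9.88 in MSI2-inducible arrays and 9.61, 10.17 and 9.71 in control rtTA arrays. These overlapped, with a difference of 0.36 (SE 0.28). Its second probe set read 10.07 and 9.98 against 9.34, 9.77 and 9.60 in control rtTA arrays, with no overlap (0.46). Mevalonate kinase, Mvk, differed by 0.21 (SE 0.23) and phosphomevalonate kinase, Pmvk, by 0.14 (SE 0.26), each with overlapping groups. Without control replicate 3 the Pmvk difference was -0.068.

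Among the 11 genes of the squalene and sterol steps, Dhcr7, Nsdhl and Msmo1 were the 3 whose groups did not overlap. Dhcr7, the reductase of the final step, read 9.62 in both MSI2-inducible arrays, against 9.17, 8.61 and 9.17 in control rtTA arrays. This gave a difference of 0.64 (SE 0.23, 1.56-fold, limma adjusted p = 0.872). Control replicates 1 and 3 hold exactly equal deposited values for this probe set, which 18.6% of probe sets show for some pair of arrays, so that the measured spread may be too small. Nsdhl, a dehydrogenase of the demethylation steps, read 7.24 and 7.10 in MSI2-inducible arrays and 6.77, 5.88 and 6.66 in control rtTA arrays. Its difference was 0.73 (SE 0.30, limma adjusted p = 0.887), and without the low control replicate 2 it was 0.46. Msmo1, the methylsterol oxidase that acts before Nsdhl, read 7.30 and 6.83 against 6.58, 6.77 and 6.43 in control rtTA arrays (difference 0.47, SE 0.22), so MSI2-inducible replicate 2 lay just above control replicate 2.

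**Figure D2:**
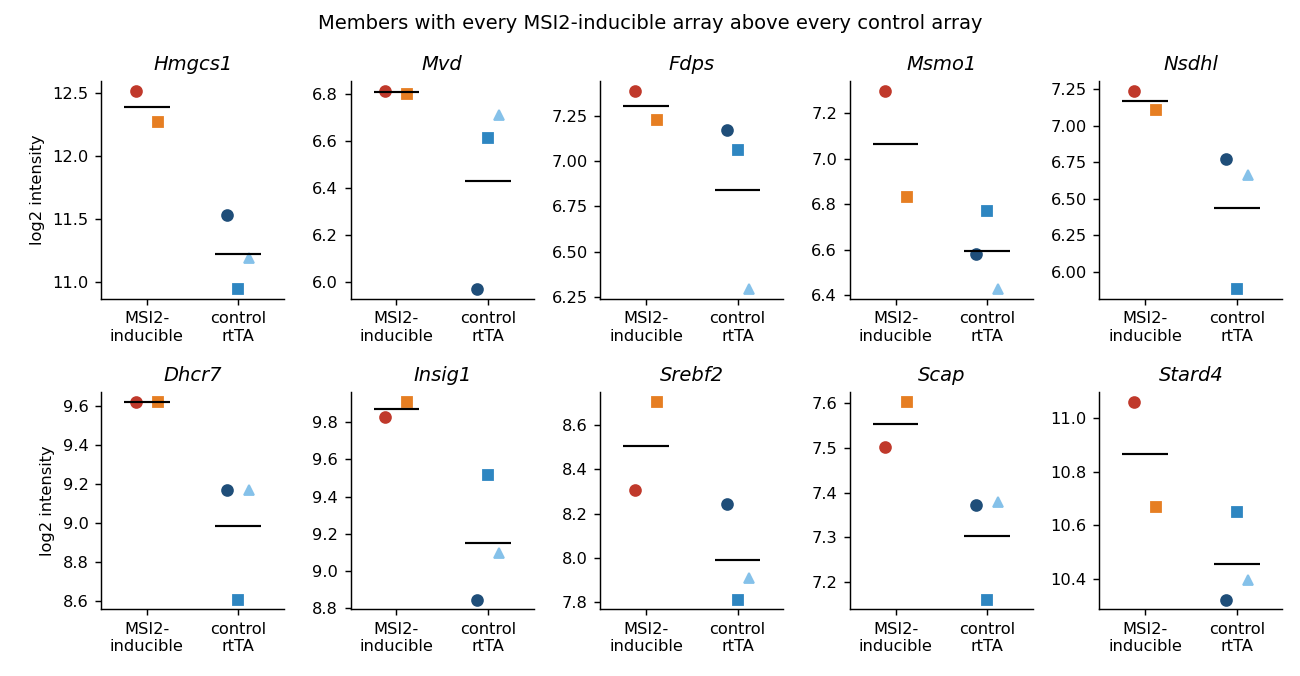
Log2 intensity of the 10 members for which both MSI2-inducible arrays (left) lay above all control rtTA arrays (right). Circles, squares and triangles are replicates 1, 2 and 3, lines are group means, and each panel has its own axis, which does not start at 0. Hmgcs1 has the widest gap, while in Mvd, Fdps, Msmo1, Srebf2 and Stard4 the lowest MSI2-inducible array sits close to the highest control array.

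Through the probe sets used, a second set of sterol genes was high in MSI2-inducible replicate 1 alone. Fdft1, squalene synthase, read 9.95 in that array but 8.78 in the other MSI2-inducible array, with control rtTA arrays at 8.77, 9.21 and 8.01. Hsd17b7, the ketoreductase that follows Nsdhl, read 8.48 and 7.60 against 7.60, 7.91 and 7.03 in control rtTA arrays. Sc5d, the desaturase before Dhcr7, read 8.12 and 6.95 against 7.32, 7.40 and 6.89 in control rtTA arrays. Differences of these genes were 0.70 (SE 0.48), 0.53 (SE 0.37) and 0.33 (SE 0.38), and without MSI2-inducible replicate 1 they were 0.12, 0.08 and -0.26. A second Fdft1 probe set did set the groups apart (difference 0.88), while its remaining probe sets overlapped (-0.03 and 0.42). The other Sc5d probe sets, described below, were higher in both MSI2-inducible arrays with no overlap (3.07 and 0.44). The other Hsd17b7 probe sets (1.12, 1.36 and 0.83) were, like the one used, led by MSI2-inducible replicate 1. That array is also the one with high neutrophil genes, and the part of these in the result was not tested.

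The remaining sterol enzymes overlapped between groups. Sqle, the epoxidase that commits squalene to sterols, read 7.74 and 8.17 in MSI2-inducible arrays and 7.51, 7.79 and 7.48 in control rtTA arrays (difference 0.36, SE 0.21). The cyclase Lss differed by 0.22 (SE 0.29), the lanosterol demethylase Cyp51 by 0.18 (SE 0.23), the isomerase Ebp by 0.22 (SE 0.28) and the sterol reductase Tm7sf2 by 0.13 (SE 0.18). Without control replicate 2 the Ebp difference was -0.0097, and without MSI2-inducible replicate 2 that of Cyp51 was -0.048.

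Single probe sets of a gene did not always move together. For Sc5d the second probe set read 6.77 and 6.30 in MSI2-inducible arrays, against 3.23, 3.36 and 3.81 in control rtTA arrays, a difference of 3.07 (SE 0.27), the largest of any member's probe set. It was singled out after its values were seen, and over all probe sets its limma adjusted p = 0.162. In control arrays this probe set was fainter than the median probe set (5.57), which leaves the size of its difference uncertain. The third Sc5d probe set, also fainter than the median probe set, differed by 0.44 with no overlap. The second Cyp51 probe set read 7.91 and 6.43 in MSI2-inducible arrays and 6.06, 5.69 and 5.61 in control rtTA arrays, a difference of 1.39 (SE 0.45), whereas the third differed by -0.27. Over all 38 probe sets of the 17 synthesis genes 32 were higher and 6 lower, with a median of 0.40. Among the 27 whose mean was at or above that median signal 26 were higher.

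**Figure D3:**
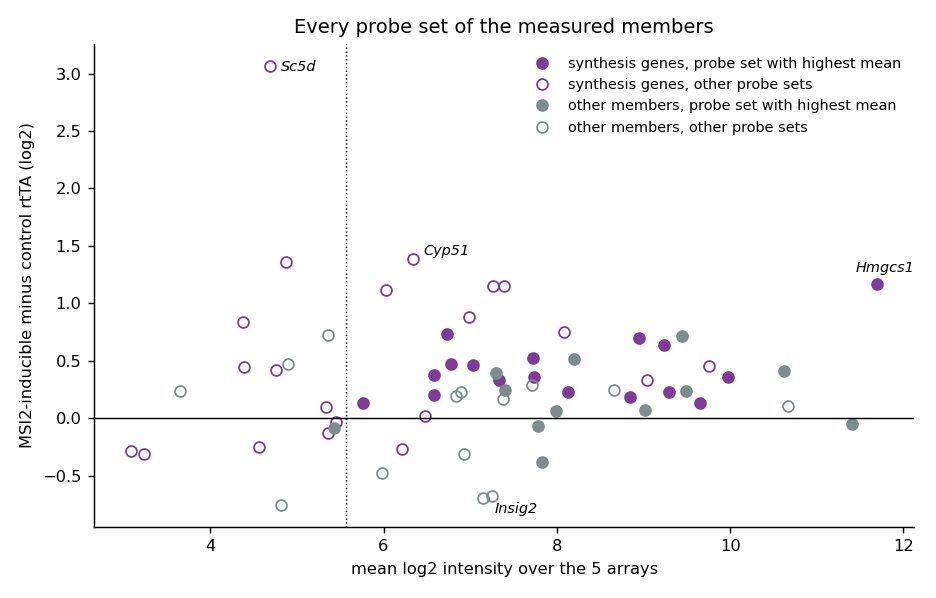
Difference, MSI2-inducible minus control rtTA (log2), against mean log2 intensity for every probe set of the 29 measured members. Filled points are the probe set used for each gene, open points the gene's other probe sets, and the dotted line is the median of all probe sets, 5.57. Synthesis probe sets right of that line sit above 0 with 1 exception, a Cyp51 probe set, while the Sc5d probe set at 3.07 lies left of it.

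The feedback regulators split. Insig1, which retains Scap in the endoplasmic reticulum and is itself a known SREBP target, read 9.83 and 9.91 in MSI2-inducible arrays, against 8.85, 9.51 and 9.10 in control rtTA arrays. The groups did not overlap, with means of 9.87 ± 0.06 (SD, n = 2) in MSI2-inducible cells and 9.15 ± 0.34 (SD, n = 3) in control rtTA cells. Its difference was 0.72 (SE 0.24, 1.64-fold, limma adjusted p = 0.870), and it has 1 probe set. Its paralogue Insig2 read 7.35 and 7.85 in MSI2-inducible arrays, against 7.83, 8.41 and 7.70 in control rtTA arrays, a difference of -0.38 (SE 0.29). The other Insig2 probe sets differed by -0.67, with no overlap, and by -0.70, so that all 3 were lower, none past the test (limma adjusted p over all probe sets 0.853 to 0.908).

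Srebf2, whose product is the main driver of cholesterol synthesis genes, read 8.31 and 8.71 in MSI2-inducible arrays and 8.25, 7.81 and 7.91 in control rtTA arrays. The groups did not overlap, but MSI2-inducible replicate 1 lay close to control replicate 1, and the difference was 0.52 (SE 0.22, limma adjusted p = 0.903). The second Srebf2 probe set differed by 0.29 with overlap. Srebf1, which acts more on fatty acid genes, read 7.97 and 8.08 in MSI2-inducible arrays, inside the range of 7.47 to 8.55 in control rtTA arrays, a difference of 0.06 (SE 0.33). Scap, the escort protein, read 7.50 and 7.60 against 7.37, 7.16 and 7.38 in control rtTA arrays, a difference of 0.25 (SE 0.17). Its second, fainter probe set went the other way (-0.75). Of the 5 regulators 4 were higher and 1 lower, 3 were higher with no overlap, and the median was 0.25. Of all genes 50.4% were higher and 9.27% were higher with no overlap, and 5 genes are few to set against these shares. Control replicate 2 had the highest regulator median of any array, 0.36. The MSI2-inducible arrays were at 0.20 and 0.30, and the other control arrays at -0.09 and -0.08.

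Genes of uptake and transport were at similar levels in both groups, except Stard4. Stard4, a soluble carrier that moves cholesterol between membranes and is also a known SREBP target, read 11.06 and 10.67 in MSI2-inducible arrays and 10.32, 10.65 and 10.39 in control rtTA arrays. The groups did not overlap, though MSI2-inducible replicate 2 barely exceeded control replicate 2, and the difference was 0.41 (SE 0.21, limma adjusted p = 0.911). Npc1 and Npc2, the pair that releases cholesterol from lysosomes, differed by 0.07 (SE 0.19, 95% interval -0.39 to 0.54) and by -0.05 (SE 0.18, 95% interval -0.48 to 0.38). Scarb1, the receptor for high-density lipoprotein, read 8.15 and 7.32 in MSI2-inducible arrays, inside nearly the same range as the 7.39 to 8.24 of control rtTA arrays, a difference of -0.07 (SE 0.35). Its direction depended on the probe set, since the other Scarb1 probe sets differed by 0.17 and 0.23. Over these 4 genes 2 were higher and 2 lower, with a median of 0.01, which was 0.18 without MSI2-inducible replicate 2 and 0.17 without control replicate 1.

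Export genes and LXR overlapped between groups. Abca1, which loads cholesterol onto apolipoprotein particles, read 7.11 and 7.96 in MSI2-inducible arrays, against 6.46, 7.51 and 7.45 in control rtTA arrays, a difference of 0.40 (SE 0.42). Only MSI2-inducible replicate 2 was above all control arrays, and without it the difference was -0.032. The other Abca1 probe sets differed by -0.48 and 0.47, each with overlap, so its direction depended on the probe set. Abcg1, its partner for export to mature high-density lipoprotein, read 9.46 and 9.81 against 9.57, 9.19 and 9.44 in control rtTA arrays. Its difference was 0.24 (SE 0.21), and a second, fainter probe set differed by 0.73, also with overlap. Nr1h3, the LXR-alpha gene, read 5.43 and 5.32 in MSI2-inducible arrays and 5.26, 5.43 and 5.68 in control rtTA arrays, a difference of -0.08 (SE 0.20), and its signal was fainter than that of the median probe set. The median of the 3 genes was 0.24, and -0.027 without MSI2-inducible replicate 2.

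Set side by side by role, medians against the control mean put both MSI2-inducible arrays above all control arrays for synthesis and for none of the other 3 roles taken singly. As 1 list, the 12 measured members outside synthesis also separated, by less, with medians of 0.04 and 0.17 in MSI2-inducible arrays, against -0.01, -0.02 and -0.06 in control rtTA arrays. Of these 12 members 4 were higher with no overlap, a share like the 6 of 17 for synthesis, against 9.27% of all genes. For synthesis the MSI2-inducible arrays had medians of 0.55 and 0.32, and the control rtTA arrays 0.09, 0.19 and -0.16. In each MSI2-inducible array 16 of the 17 genes lay above their control mean, against 12, 12 and 5 in the control arrays. MSI2-inducible replicate 1 alone exceeded every control array for 12 synthesis genes and replicate 2 for 8, against 31.9% and 21.1% of all genes. For uptake and transport the medians were 0.18 and 0.02 in MSI2-inducible arrays, against 0.18, -0.06 and -0.10 in control arrays, and for export and LXR -0.03 and 0.41 against -0.20, -0.03 and 0.22. The difference between the roles was not tested, and with 3 and 4 measured genes the smaller groups are imprecise. Without MSI2-inducible replicate 1, the array with high neutrophil genes, 16 of 17 synthesis genes were higher with a median of 0.32, and without replicate 2 also 16, with a median of 0.55. The count of synthesis genes with no overlap was 12 without MSI2-inducible replicate 2 and 10 without control replicate 2, where 31.9% and 16.7% of all genes had none.

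**Figure D4:**
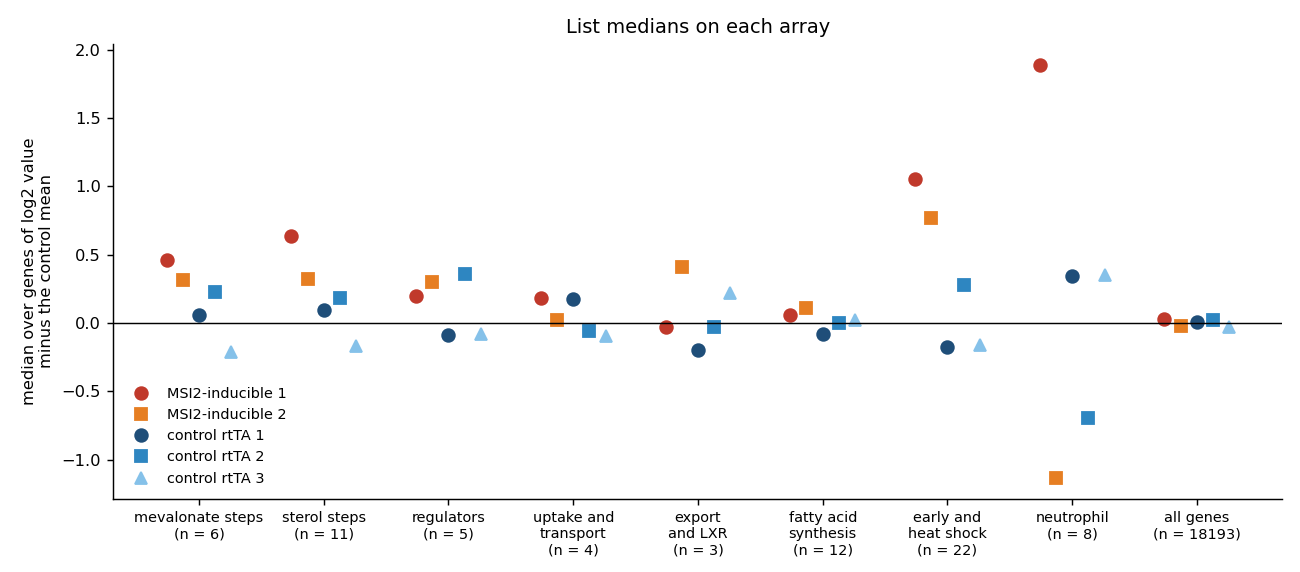
Median over the genes of each list of the log2 value minus the gene's control mean, on each of the 5 arrays; n is the number of genes measured. Both MSI2-inducible arrays lie above the control arrays for mevalonate steps, sterol steps, and early and heat shock genes, narrowly so for fatty acid synthesis, and they lie at opposite ends for neutrophil genes.

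Other genes of the pathway, from lists written alongside the members, had medians near 0. Of 6 further measured genes of sterol and isoprenoid synthesis 4 were higher and 2 lower, with a median of 0.07, and 0 were above the control arrays without overlap. Acat1, the mitochondrial thiolase, was the 1 gene apart, and lower (-0.14). Of 12 genes of fatty acid synthesis, the other branch under SREBP control, 6 were higher and 6 lower, with a median of 0.01. Their medians were 0.06 and 0.11 in MSI2-inducible arrays, narrowly above -0.08, 0.00 and 0.03 in control rtTA arrays. Fasn, fatty acid synthase, read 7.51 and 7.75 in MSI2-inducible arrays and 7.31, 7.39 and 7.46 in control rtTA arrays (difference 0.24), while the elongase Elovl5 differed by -0.41, each with no overlap. Further uptake, transport and storage genes had a median of -0.05, with 4 of 13 higher. Among them Mylip, the ubiquitin ligase that degrades lipoprotein receptors and a known LXR target, read 8.15 and 7.77 in MSI2-inducible arrays, against 6.81, 7.27 and 6.97 in control rtTA arrays. Its difference of 0.94 did not pass the test (limma adjusted p = 0.671). Further LXR partners and targets had a median of 0.01 over 7 genes, and further SREBP control genes 0.00 over 7. The medians of the last list were 0.10 and 0.05 in MSI2-inducible arrays, narrowly above -0.0044, -0.02 and 0.0088 in control rtTA arrays, with Fbxw7, a ubiquitin ligase subunit that acts on SREBPs, at 0.54. Of all these lists 0 genes were called at a limma adjusted p under 0.05.

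Immediate early and heat shock genes, which respond to handling and stress, moved with the same arrays as the synthesis genes. Of 22 measured, 21 were higher, 17 with no overlap, against 50.4% and 9.27% of all genes, with a median difference of 1.0. The list's medians were 1.05 and 0.76 on the MSI2-inducible arrays, and -0.17, 0.28 and -0.16 on the control rtTA arrays. The early gene Egr1, for example, read 11.57 and 11.50 in MSI2-inducible arrays and 10.17, 11.10 and 10.23 in control rtTA arrays. Control replicate 2 was the highest control array for this list. It also had the highest control median for synthesis. The log2 summed synthesis signal was 12.93 there, against 12.96 and 12.71 in control replicates 1 and 3. Among synthesis genes, control replicate 2 was the highest control array for Mvk, Pmvk, Idi1, Fdft1, Sqle, Lss, Cyp51, Msmo1, Hsd17b7 and Sc5d. It was the lowest for Hmgcs1, Tm7sf2, Nsdhl, Ebp and Dhcr7, and between the others for Mvd and Fdps. The part of early and heat shock genes in the synthesis result was not tested. RNA quality, read as the 3′ minus 5′ signal of Gapdh, was 2.22 in both MSI2-inducible arrays and 2.14, 2.60 and 2.40 in control rtTA arrays (exact permutation p = 0.4, two-sided, where 0.1 is the smallest p that 2 against 3 arrays allow).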

How the data were processed

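Expression was measured in 2 MSI2-inducible and 3 control rtTA samples, 1 array each, after linear RNA amplification per the labels' protocols. The authors deposited normalized intensity values, linear in scale, for each probe set. The submitters' processing notes name RMA, the affy package and R 2.11.0; how RMA's log values were turned back is not stated there. The log2 of the intensity was taken with no pseudocount. Array medians lay between 46.4 and 48.3 intensity units; the number of arrays limits precision.

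Of 45101 probe sets 34958 had 1 symbol in the platform annotation, 932 several and 9211 none. Of those with 1 symbol, 34754 were updated by Entrez ID. Each gene took its probe set with the highest mean over the 5 arrays, which left 18193 genes after 64 control probe sets. The comparison used limma 3.58.1 (R 4.3.3) with group as the sole term, two-sided, with Benjamini-Hochberg adjustment over all genes and a threshold of 0.05. The fit was tested on simulated data. No array was left out or imputed.

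The members and lists were chosen with earlier results of these data known. Named genes are every member, Msi2 and, from each other list, up to 4 genes with the smallest p. Fasn, Egr1, other markers and single probe sets were named after their values were seen. Alternatives varied the gene value, filters, scaling, variance model, replicate block and arrays used. Same-numbered arrays of the groups had correlated deviations of 0.134 and 0.099, over 2 pairs only, and nothing in the labels pairs them.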

Additional observations from a re-analysis of the deposited data

How the results depend on the processing

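No member passed the test in any of the 15 settings tried, at a threshold of 0.10 included, and 389 member differences kept their direction while 16 turned. Testing probe sets singly, leaving out low values and using limma's trend and robust options cannot change a measured member's difference, so those could not turn. The replicate block repeats the differences found without control replicate 3. The count of 389 is therefore no measure of stability. Among all genes 3 were called higher and 1 lower. With array weights and with log2(intensity + 16) 1 gene was called higher; with log2(intensity + 16) and with probe sets tested singly 0 lower; with low values left out and with quantile normalization once more 2 lower; at an adjusted p under 0.10 3 lower; with 1 array left out 0 to 0 in each direction. With the replicate block 0 genes were called in either direction, the synthesis median was 0.29, and Pmvk (-0.068), Srebf1 (-0.19) and Nr1h3 (0.030) turned direction; control replicate 3 has no partner and adds nothing to that fit. Left-out arrays gave synthesis medians of 0.29 to 0.55, counts of synthesis genes with no overlap of 6 to 12, uptake medians of -0.026 to 0.18 and export medians of -0.027 to 0.41. Differences that turned with an array left out ranged from -0.068 to 0.31 for Pmvk, -0.048 to 0.42 for Cyp51, -0.0097 to 0.40 for Ebp, -0.26 to 0.92 for Sc5d, -0.19 to 0.35 for Srebf1, -0.13 to 0.010 for Npc2, -0.48 to 0.35 for Scarb1, -0.032 to 0.82 for Abca1 and -0.18 to 0.030 for Nr1h3. Scap was -0.25 and Scarb1 0.11 with the mean of probe sets, and Scarb1 0.17 without _x_at probe sets. Why these turned was not tested. With 1 MSI2-inducible array left out, the lone array is assumed to vary like the controls. Nr1h3 and Tm7sf2 are limited by faint signal.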
